A study of Mus musculus with 16 samples.

Results

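Expression of the core transforming growth factor beta (TGF-beta) genes was followed in the mouse atrium after myocardial infarction. The set holds the 3 ligand genes Tgfb1, Tgfb2 and Tgfb3, the 3 receptor genes Tgfbr1, Tgfbr2 and Tgfbr3, and the 4 latent TGF-beta binding protein genes Ltbp1, Ltbp2, Ltbp3 and Ltbp4. They were chosen by name, with earlier results of these data known, and each was taken from the array row whose annotation gives that 1 symbol. All 10 genes were found among 30141 genes with such a row, each has a row of its own, and all 10 passed the filter on low values that left 18419 genes for testing. Every member was in the upper part of its array, above the median of all rows, on 16 of 16 arrays.

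The animals were wild-type C57BL/6 male mice, 10 weeks old, and the tissue was the atria. Infarction was made by tying the left anterior descending coronary artery, which mainly supplies the left ventricle. There are 4 groups of 4 arrays each. Arrays numbered 1 to 4 come from sham surgery, and infarcted mice gave arrays 11 to 14 on day 1, 31 to 34 on day 3 and 71 to 74 on day 7. The labels do not say on which day the sham atria were taken, and they describe each sample as a mouse without numbering the animals, so the p-values measure the spread between these arrays. All 3 days share the same 4 sham arrays, so a sham value that is off moves all 3 comparisons together.

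TGF-beta is made as a precursor that is cut and then stays wrapped in its own propeptide, the latency-associated peptide, which keeps it inactive. In most mesenchymal cells this small latent complex is bound by a disulfide link to a latent TGF-beta binding protein, which carries it to fibronectin and fibrillin fibres in the matrix and holds it there until integrins, proteases or thrombospondin-1 release it. The freed ligand binds the type II receptor (Tgfbr2), which recruits and phosphorylates the type I receptor (Tgfbr1), which phosphorylates Smad2 and Smad3. Betaglycan (Tgfbr3) is a co-receptor with a short cytoplasmic tail that presents ligand, Tgfb2 above all, and its shed ectodomain can hold ligand away. Of the binding proteins, Ltbp1 and Ltbp3 bind the latent forms of all 3 ligands, Ltbp4 binds latent TGF-beta 1 weakly and serves elastic fibre assembly, and Ltbp2 does not bind latent TGF-beta. In the heart this pathway is known for its part in fibroblast activation and scar formation after injury.

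The promoter window was listed in RefSeq (build GRCm38.p6) for 8 of the 10 members, as 12 windows of 300 bases, 250 before and 50 after the transcript start. Of these, 3 are shown because their genes behaved differently in the atria: Tgfb1 rose early and stayed level, Tgfb2 was highest on day 1, and Ltbp2 rose late. They are Tgfb1 at chr7:25686752-25687051 on the plus strand, Tgfb2 at chr1:186705940-186706239 on the minus strand and Ltbp2 at chr12:84876442-84876741 on the minus strand, each written 5′ to 3′ on the gene's strand with every match to the motifs searched in capitals.
Tgfb1: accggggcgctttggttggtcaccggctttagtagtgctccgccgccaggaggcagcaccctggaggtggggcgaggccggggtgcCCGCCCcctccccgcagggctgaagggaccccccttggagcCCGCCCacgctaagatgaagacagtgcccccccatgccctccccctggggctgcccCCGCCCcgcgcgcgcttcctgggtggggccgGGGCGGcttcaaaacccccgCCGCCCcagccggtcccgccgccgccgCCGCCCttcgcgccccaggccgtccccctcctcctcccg
Tgfb2: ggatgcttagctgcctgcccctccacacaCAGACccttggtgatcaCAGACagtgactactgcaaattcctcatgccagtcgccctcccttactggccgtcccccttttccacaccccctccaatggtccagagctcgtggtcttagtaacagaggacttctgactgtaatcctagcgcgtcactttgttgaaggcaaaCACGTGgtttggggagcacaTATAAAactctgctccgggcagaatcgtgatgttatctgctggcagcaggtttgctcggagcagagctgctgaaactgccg
Ltbp2: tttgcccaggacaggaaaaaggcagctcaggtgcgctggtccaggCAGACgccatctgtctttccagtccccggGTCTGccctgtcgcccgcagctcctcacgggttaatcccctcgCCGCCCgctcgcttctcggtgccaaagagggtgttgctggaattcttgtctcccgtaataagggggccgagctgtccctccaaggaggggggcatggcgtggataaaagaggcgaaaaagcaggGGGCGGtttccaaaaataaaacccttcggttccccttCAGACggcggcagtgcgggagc
The motifs were searched on both strands. The core of the Smad-binding element was searched as CAGAC, and the AP-1 site, at which many injury signals end, as TGANTCA. For the cyclic AMP response element the letters were TGACGTCA. The GC box, bound by Sp1 in promoters without a TATA box, was searched as GGGCGG and the TATA box itself as TATAAA. The E-box, a site of helix-loop-helix factors, was taken as CACGTG. No motif contains another of them. The Tgfb1 window, with a GC content of 77.0%, held 6 GC boxes and no match to the other 5 motifs. The Tgfb2 window, at 54.3% GC, held 2 CAGAC matches, 1 TATAAA and 1 CACGTG, and the Ltbp2 window, at 61.0% GC, held 3 CAGAC matches and 2 GC boxes. Among 32851 promoter windows of the same length in the RefSeq table, 49.6% held CAGAC, 35.7% held GGGCGG, 13.6% held TATAAA, 7.81% held TGANTCA, 7.15% held CACGTG and 1.79% held TGACGTCA. TGANTCA was found for a member in the Ltbp3 window only, and TGACGTCA in 1 of the 2 Ltbp1 windows only. A match is a stretch of letters and was not tested as a binding site.

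Values are the authors' log2 signals, so a difference of 1 is a factor of 2, and a level is compared only with the same gene's level on other arrays. The array medians over all rows lay between 4.17 and 4.61. Negative control rows had medians of 4.47 to 4.53 in sham and 4.69 to 4.87 on day 1. Array 31 (day 3) and array 13 (day 1) stood apart from their groups: their median correlations with the other arrays of the group were 0.948 and 0.984, against 0.991 to 0.994 elsewhere, and positive control rows stood above negative ones with a probability of 0.743 and 0.755, against 0.793 to 0.825 elsewhere. Array 31 also differed from the other day 3 arrays in its neutrophil markers, whose mean log2 level of 8.70 lay inside the day 1 range of 7.99 to 9.14 and not near the 5.52 to 5.59 of arrays 32 to 34. Where leaving out either array ends or adds a call of a member, both values are given. In the limma fit over all genes, with a call at an adjusted p (Benjamini-Hochberg) under 0.05, the median difference of all tested genes from sham was 0.064 on day 1, 0.082 on day 3 and -0.006 on day 7. Quantile normalisation moved the day 1 median to -0.149 and the day 3 median to -0.067, and median centring moved the day 7 median to -0.11. Of the genes called against sham, 52.9% were higher on day 1 as deposited, 30.3% after quantile normalisation and 38.5% after median centring. On day 3 these shares were 53.8%, 36.1% and 36.9%, and on day 7 they were 60.0%, 60.8% and 37.9%.

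All 3 ligand genes were higher than sham on all 3 days, while the receptors and binding proteins divided. On day 1, 7 of the 10 members were called, 4 higher and 3 lower, beside 47.1% of all tested genes called in either direction, 24.9% higher and 22.2% lower. On day 3, 9 were called, 6 higher and 3 lower, beside 43.7% of all genes, 23.5% higher and 20.2% lower. On day 7, 8 were called and all 8 were higher, beside 24.8% of all genes, 14.9% higher and 9.92% lower. The 4 arrays of a day did not overlap the sham arrays for 8 members on day 1, 8 on day 3 and 9 on day 7, beside 55%, 42.8% and 38.3% of all genes. Without arrays 13 and 31 the members called were 7, 9 and 9. The median difference of the 10 members from sham was 0.073 on day 1, 0.78 on day 3 and 1.19 on day 7. Tgfb1, Tgfb2, Tgfb3 and Tgfbr1 were called higher on all 3 days, as 8.07% of all tested genes were. With Ltbp4, 5 members were called on all 3 days in some direction, as 16.2% of all tested genes were. Each of the 10 was called on at least 1 day, and Ltbp4 alone among them was called in both directions. The shares of all tested genes for these last counts were not computed, and 47.1% of all genes were called on day 1 already. In bulk tissue, fewer cells of a type and less RNA per cell cannot be told apart, and that holds for every value here.

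**Figure D1:**
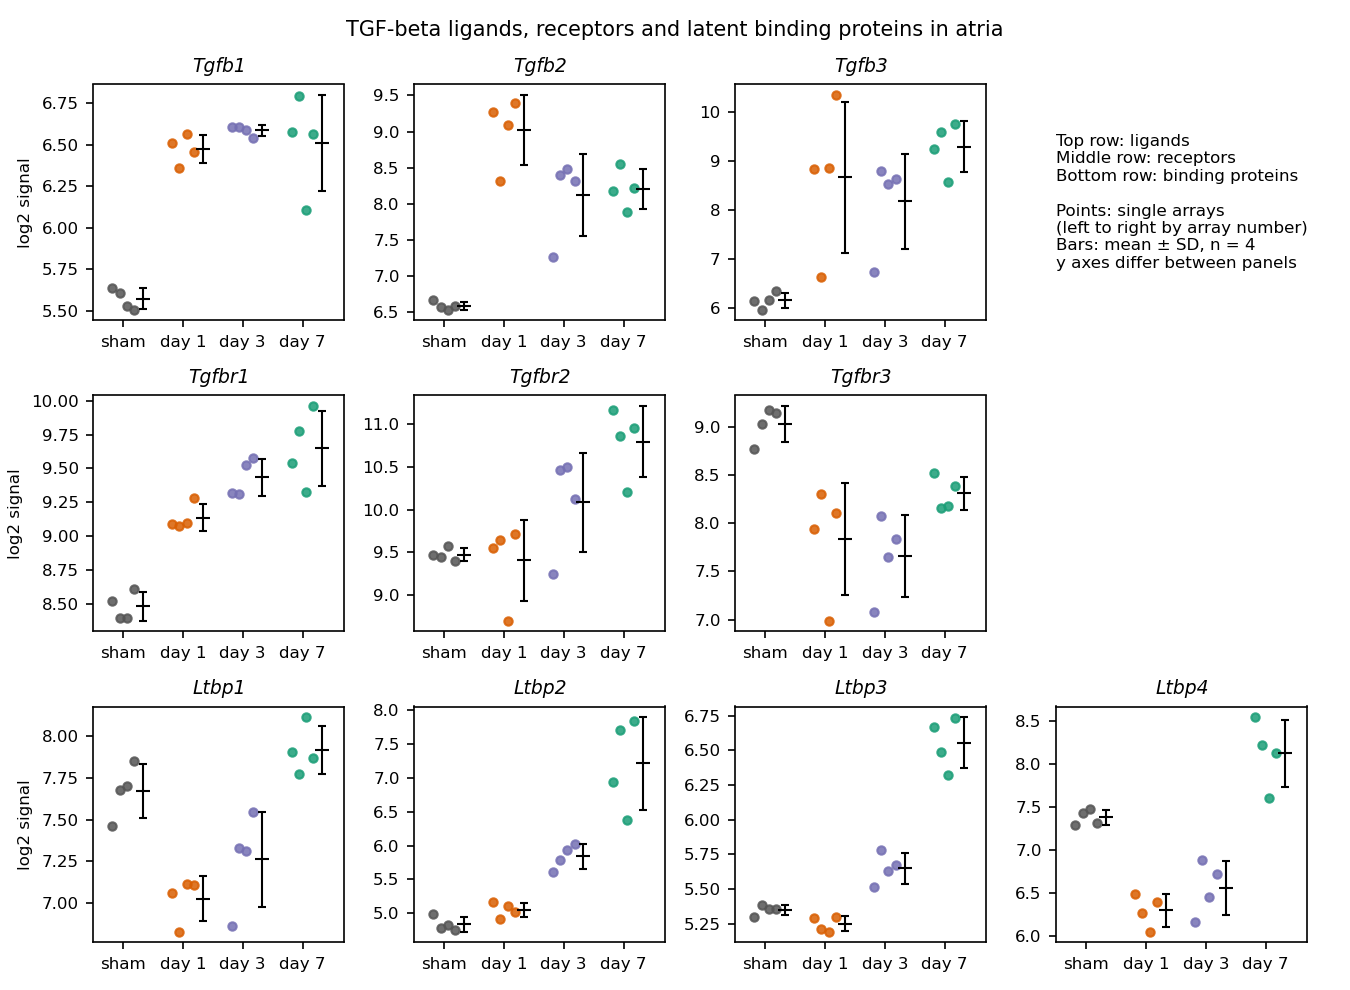
Log2 signal of the 10 members on each of the 16 arrays (y axis), by group (x axis: sham, day 1, day 3 and day 7), with 1 point per array, left to right in the order of the array numbers, and the group mean ± SD beside the points. The ligands lie above sham on every array of every day, Tgfbr3 lies below it, and the 4 binding proteins stand higher on day 7 than on day 3.

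Tgfb1, the ligand most often linked to immune cells, platelets and fibrosis, rose by about 1 log2 unit by day 1 and stayed there. The sham arrays 1 to 4 read 5.64, 5.61, 5.53 and 5.51. In the order of the array numbers, day 1 read 6.51, 6.36, 6.56 and 6.46, day 3 read 6.61, 6.61, 6.59 and 6.54, and day 7 read 6.57, 6.79, 6.11 and 6.56; the same order is kept below. Every infarction array lay above every sham array, and the 3 days overlapped each other. The difference from sham was 0.90 on day 1 (SE 0.11, adjusted p 2.74e-05), 1.02 on day 3 (SE 0.11, adjusted p 7.96e-06) and 0.94 on day 7 (SE 0.11, adjusted p 4.29e-05). Day 7 differed from day 1 by 0.037, with a 95% interval of -0.20 to 0.27, so a further change of up to about 0.27 in size is within the error. The standard deviation was 0.033 on day 3 (n = 4), which includes array 31, and 0.29 on day 7 (n = 4), where array 73 was the low one.

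Tgfb2, the ligand that depends on betaglycan for tight binding to the type II receptor, was highest on day 1. It read 6.67, 6.57, 6.54 and 6.59 in sham and 9.28, 8.32, 9.09 and 9.39 on day 1. The day 3 arrays read 7.27, 8.41, 8.49 and 8.32, of which the 7.27 of array 31 is far below the other 3. The day 7 arrays read 8.19, 8.56, 7.88 and 8.21. No infarction array overlapped sham. The rise over sham was 2.42 on day 1 (SE 0.27, adjusted p 1.24e-05), 1.53 on day 3 (SE 0.27, adjusted p 0.000398) and 1.62 on day 7 (SE 0.27, adjusted p 0.000603). Without array 31 the day 3 difference was 1.81.

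The later Tgfb2 levels were below that of day 1, but this step rests on thin evidence. Day 7 was lower than day 1 by -0.81 (adjusted p 0.0392), with overlapping arrays, and the call was lost when any of 9 of the 16 arrays was left out (arrays 2, 3, 4, 11, 13, 14, 71, 73 or 74; adjusted p 0.0508 to 0.104), and after quantile normalisation (adjusted p 0.114). Day 3 was lower than day 1 by -0.90 and was not called (adjusted p 0.0549). Without array 31 that difference was -0.61 and was called (adjusted p 0.0354), and without array 12 it was -1.13 (adjusted p 0.0162).

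Tgfb3, which signals through the same receptors, rose on all 3 days with a wide spread between arrays. Sham arrays read 6.15, 5.97, 6.17 and 6.35. On day 1 the values were 8.84, 6.63, 8.85 and 10.34, so that array 12 was close to sham and array 14 was 3.72 above array 12. On day 3 they were 6.74, 8.79, 8.53 and 8.64, with array 31 the low one, and on day 7 they were 9.25, 9.58, 8.57 and 9.76. All 12 infarction arrays still lay above all sham arrays.

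The Tgfb3 difference from sham was 2.50 on day 1 (SE 0.62, adjusted p 0.00512), 2.02 on day 3 (SE 0.62, adjusted p 0.0166) and 3.13 on day 7 (SE 0.62, adjusted p 0.00213). The day 1 interval ran from 1.18 to 3.83. Without array 12 the day 1 difference was 3.18 (adjusted p 0.000237), and without array 14 it was 1.94 (adjusted p 0.0161). Without array 31 the day 3 difference was 2.49. No difference between 2 of the 3 days was called by the same fit (adjusted p 0.248 to 0.708). Arrays 12 and 31, which were low for Tgfb3, were also the lowest of their groups in the atrial cardiomyocyte markers, with mean levels of 13.72 and 12.64 against 16.50 to 16.68 in sham, and in the epicardial and mesothelial markers, with 4.72 and 4.96 against 6.16 to 6.61 in sham. Other arrays went the other way. On day 7 array 73 was the lowest for Tgfb3 and the highest of its group in the atrial cardiomyocyte markers, at 16.25. Sham had the lowest Tgfb3 values and the highest levels of those markers. Array 13 was the highest of day 1 in the epicardial and mesothelial markers, at 6.58, but not in Tgfb3. Array 31 was also the lowest of day 3 in the macrophage, fibroblast, smooth muscle and pericyte, and endothelial markers. The part of these cell types in the Tgfb3 values was not tested.

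Tgfbr1, the type I receptor kinase that phosphorylates Smad2 and Smad3, rose on day 1 and was higher again on day 7. It read 8.52, 8.39, 8.40 and 8.61 in sham, 9.09, 9.07, 9.09 and 9.28 on day 1, 9.32, 9.31, 9.52 and 9.58 on day 3, and 9.54, 9.78, 9.32 and 9.96 on day 7. No infarction array overlapped sham, and the day 1 arrays lay below all those of day 3 and day 7. The difference from sham was 0.65 on day 1 (SE 0.13, adjusted p 0.00134), 0.95 on day 3 (SE 0.13, adjusted p 5.66e-05) and 1.17 on day 7 (SE 0.13, adjusted p 3.3e-05). After quantile normalisation the day 1 difference was 0.39 and was no longer called (adjusted p 0.0542). Day 7 exceeded day 1 by 0.52 (adjusted p 0.0108), while the steps from day 1 to day 3 (0.30, adjusted p 0.206) and from day 3 to day 7 (0.22, adjusted p 0.283) were not called.

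Tgfbr2, the ligand-binding type II receptor kinase, was called higher on day 7 and not before. Sham read 9.47, 9.44, 9.58 and 9.39. Day 1 read 9.55, 9.65, 8.70 and 9.72, around sham but for the low array 13, and day 3 read 9.24, 10.47, 10.49 and 10.12, above sham but for array 31. Day 7 read 11.16, 10.87, 10.20 and 10.95, all above sham. The difference was -0.067 on day 1 (SE 0.29, adjusted p 0.861), 0.61 on day 3 (SE 0.29, adjusted p 0.106) and 1.33 on day 7 (SE 0.29, adjusted p 0.00421). Day 7 exceeded day 1 by 1.39 (adjusted p 0.00325).

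Array 31 decides the Tgfbr2 result of day 3: without it the difference from sham was 0.89 and was called (adjusted p 0.00863), and the difference from day 1 was 0.96 in place of 0.68 and was called too (adjusted p 0.00863). Without array 13 the day 1 difference turned from -0.067 to 0.17, again not called (adjusted p 0.649). Arrays 13 and 31 were also the lowest of their groups in 4 marker lists. Their mean levels were 8.49 and 7.98 for smooth muscle and pericyte markers (9.21 to 9.72 in sham), 9.40 and 10.56 for fibroblast markers (10.75 to 11.00 in sham), 9.79 and 9.97 for endothelial markers (10.21 to 10.40 in sham) and 9.08 and 9.11 for ventricular cardiomyocyte markers (10.20 to 10.39 in sham). Array 73, the lowest of day 7 for Tgfbr2, was the lowest in fibroblast and endothelial markers but the highest in smooth muscle and pericyte markers. The part of these cell types, or of the arrays' quality, in the Tgfbr2 values was not tested.

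Tgfbr3 (betaglycan) was the receptor gene that fell. Sham read 8.77, 9.02, 9.17 and 9.15, day 1 read 7.93, 8.31, 6.99 and 8.10, day 3 read 7.08, 8.07, 7.65 and 7.83, and day 7 read 8.52, 8.16, 8.18 and 8.39. Every infarction array lay below every sham array, with the lowest values on arrays 13 and 31. The difference was -1.19 on day 1 (SE 0.26, adjusted p 0.00213) and -1.37 on day 3 (SE 0.26, adjusted p 0.000675). Without array 13 the day 1 difference was -0.91, and without array 31 the day 3 difference was -1.18, both called. On day 7 it was -0.72 and just missed the threshold (SE 0.26, adjusted p 0.0552). Median centring (-0.82, adjusted p 0.022), and leaving out array 12 (adjusted p 0.0467), 13 (adjusted p 0.0117) or 31 (adjusted p 0.023) each brought that day 7 difference past the threshold.

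The binding protein genes were of mixed sign early and rose between day 3 and day 7. Ltbp1, which is known to anchor the latent complex to fibronectin and fibrillin, read 7.46, 7.68, 7.70 and 7.85 in sham, 7.06, 6.83, 7.11 and 7.11 on day 1, 6.86, 7.33, 7.31 and 7.55 on day 3, and 7.91, 7.78, 8.11 and 7.87 on day 7. It fell on day 1 with no overlap with sham and stood near sham again on day 7. The difference from sham was -0.65 on day 1 (SE 0.14, adjusted p 0.00182), -0.41 on day 3 (SE 0.14, adjusted p 0.0239) and 0.24 on day 7 (SE 0.14, adjusted p 0.22). The day 3 call was lost without sham array 3 (adjusted p 0.053), without sham array 4 (adjusted p 0.0745) and without array 31 (-0.28, adjusted p 0.0576). Ltbp1 on day 7 was above day 3 by 0.65 (adjusted p 0.00646) and above day 1 by 0.89 (adjusted p 0.00033).

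Ltbp2, the family member without a latent TGF-beta partner, which associates with fibrillin and elastic fibres, had the largest rise of the 4 on day 7. It read 4.99, 4.77, 4.83 and 4.75 in sham and 5.16, 4.92, 5.11 and 5.01 on day 1. These values lie close to the negative control rows, of which 54.6% to 63.7% read lower on the same arrays, so the sham level is near the floor of the measurement. Day 3 read 5.61, 5.78, 5.94 and 6.03, and day 7 read 6.94, 7.70, 6.38 and 7.84. Each of those days lay wholly above the groups before it. The difference from sham was 0.21 on day 1 (SE 0.24, adjusted p 0.471), 1.00 on day 3 (SE 0.24, adjusted p 0.00362) and 2.38 on day 7 (SE 0.24, adjusted p 1.45e-05), and with sham so near the floor these may understate the change. The step from day 3 to day 7 was 1.38 (adjusted p 0.0023).

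Ltbp3, which assists secretion of latent TGF-beta, changed little on days 1 and 3 and then rose. Sham read 5.30, 5.39, 5.36 and 5.35, day 1 read 5.29, 5.21, 5.19 and 5.30, day 3 read 5.51, 5.78, 5.63 and 5.67, and day 7 read 6.67, 6.49, 6.32 and 6.73. The groups do not overlap, though the highest day 1 value and the lowest sham value both round to 5.30. Of the negative control rows, 68.5% to 70.4% read lower on the sham arrays and 56.3% to 63.0% on the day 1 arrays. The level is thus close to the floor, and a fall on day 1 may be understated. The difference was -0.10 on day 1 (SE 0.082, adjusted p 0.316), 0.30 on day 3 (SE 0.082, adjusted p 0.00865) and 1.20 on day 7 (SE 0.082, adjusted p 1.01e-06). The day 3 call was lost after quantile normalisation (0.14, adjusted p 0.383) and after median centring (0.17, adjusted p 0.0744), and median centring made the day 1 difference of -0.19 a call (adjusted p 0.0426). Its step of 0.90 from day 3 to day 7 was called (adjusted p 2.53e-05).

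Ltbp4, known for elastic fibre assembly, fell and then rose past sham. Sham read 7.29, 7.43, 7.47 and 7.32. Day 1 read 6.48, 6.26, 6.05 and 6.39 and day 3 read 6.17, 6.88, 6.45 and 6.72, all below sham. Day 7 read 8.54, 8.22, 7.60 and 8.13, all above sham. The difference was -1.08 on day 1 (SE 0.18, adjusted p 0.000383), -0.83 on day 3 (SE 0.18, adjusted p 0.00228; -0.70 without array 31) and 0.75 on day 7 (SE 0.18, adjusted p 0.00841). Between day 3 and day 7 it rose by 1.57 (adjusted p 0.000175), a larger signed step than in 99.3% of all tested genes.

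**Figure D2:**
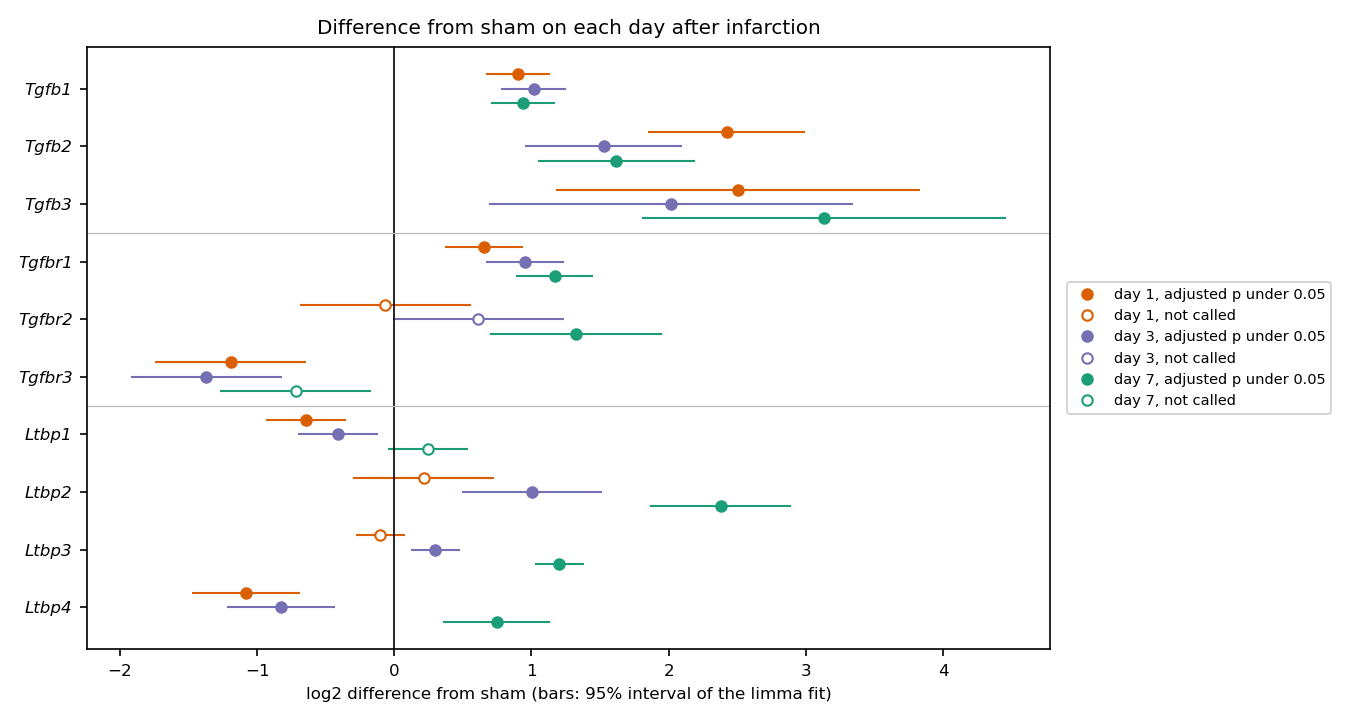
Log2 difference from sham (x axis) of each member (y axis) on day 1, day 3 and day 7, with the 95% interval of the limma fit as bars. Filled points passed an adjusted p of 0.05 over 18419 genes and open points did not. The ligands lie right of 0 on all 3 days, Tgfbr3 lies left of it, and Ltbp4 crosses from -1.08 on day 1 to 0.75 on day 7.

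The days were also compared with each other, which uses no sham array in the difference; whether the classes differed in these steps was not tested. From day 3 to day 7, 4 of 10 members were called, all 4 of them binding proteins and all higher, beside 12.6% of all genes called in either direction and 4.06% called higher. In that comparison the 4 arrays of day 7 lay wholly above those of day 3 for 5 members, the binding proteins and Tgfbr3, as for 10.4% of all genes. The median step of the 4 binding proteins was 1.14, beside -0.049 over all tested genes. No ligand or receptor was called by limma in it, and of those 6 genes Tgfbr2 (0.71, unadjusted p 0.0281) and Tgfbr3 (0.65, unadjusted p 0.0235) had an unadjusted p under 0.05. Without array 13 the Tgfbr3 step was called (adjusted p 0.0338). Tgfb3 had a step of 1.12 in that interval, larger than those of Ltbp1 and Ltbp3, with a 95% interval of -0.21 to 2.45. Of the genes called between these days, 32.1% were higher as deposited, 59.5% after quantile normalisation and 42.5% after median centring, and the count of members called was 4 under both alternatives.

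From day 1 to day 7, 7 members were called, beside 26.4% of all genes. The 4 binding proteins, Tgfbr1 and Tgfbr2 were higher and Tgfb2 was lower; 13.7% of all genes were called higher and 12.7% lower, and quantile normalisation moved the higher share of the calls from 51.8% to 75.0%. Ltbp2 was higher by 2.17, Ltbp4 by 1.83 and Ltbp3 by 1.30. From day 1 to day 3 only Ltbp3 was called, by 0.40 (adjusted p 0.00829), beside 8.11% of all genes. That last count depends on the arrays: 5 members were called without array 31, 0 of the 10 after quantile normalisation (limma adjusted p 0.0643 for Ltbp3; 5 of the 10 had an unadjusted p under 0.05), and 2 when array 12, 72, 73 or 74 was left out. The calls added without array 31 were Tgfb2 and Tgfbr2, given above, Ltbp1 (0.24 with the array, 0.37 without, adjusted p 0.0204) and Ltbp2 (0.79 with it, 0.87 without, adjusted p 0.0185).

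Whether 2 genes of a class changed by unequal amounts was tested on their difference within each array, which removes any shift common to the array. There were 36 such tests (3 ligand, 3 receptor and 6 binding protein pairs on 3 days), each an exact two-sided permutation test over 70 splits of 4 against 4 arrays, whose smallest possible p is 0.0286 (0.0381 adjusted over the 36). In all, 27 of the 36 reached it: 4 of 9 for ligands, 7 of 9 for receptors and 16 of 18 for binding proteins. The tests share genes and sham arrays and so are not independent. The share among pairs of other genes was not computed, and the classes were not tested against each other.

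Among ligands, Tgfb2 rose more than Tgfb1 by 1.52 on day 1 (SE 0.22; the exact permutation test gave adjusted p 0.0381), and by 0.68 on day 7 (SE 0.048; same p). Tgfb3 rose more than Tgfb1 by 2.19 and more than Tgfb2 by 1.52 on day 7 (same p for both). None of the 3 ligand pairs reached the threshold on day 3, where Tgfb1 less Tgfb2 was -0.51 (SE 0.29; exact permutation adjusted p 0.156), and Tgfb2 and Tgfb3 were not told apart on day 1 (-0.080, SE 0.55; exact permutation adjusted p 0.743). Array 31 is the array that lies apart in the day 3 pair of Tgfb1 and Tgfb2.

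Among receptors, Tgfbr3 parted from both others on all 3 days. Tgfbr1 gained on Tgfbr3 by 1.85, 2.32 and 1.89 on days 1, 3 and 7, and Tgfbr2 gained on it by 1.13, 1.98 and 2.04 (exact permutation adjusted p 0.0381 each). Tgfbr1 gained on Tgfbr2 by 0.72 on day 1 (same p), while the pair was not told apart on day 3 (0.34, SE 0.29) and day 7 (-0.16, SE 0.18; exact permutation adjusted p 0.529).

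Among binding proteins, Ltbp2 gained on Ltbp4 by 1.30 on day 1, 1.83 on day 3 and 1.63 on day 7, and on Ltbp1 by 0.86, 1.41 and 2.14 (exact permutation adjusted p 0.0381 each). On day 1 Ltbp2 itself was not called by limma (0.21, adjusted p 0.471), while Ltbp4 (-1.08) and Ltbp1 (-0.65) fell. Ltbp2 lay near the floor in sham and on day 1, so a fall of its own could be hidden. The smallest of the called differences was Ltbp2 against Ltbp3 on day 1, at 0.31 (SE 0.090), with both genes close to the negative control rows. Ltbp1 and Ltbp4 were told apart on day 1, where Ltbp4 fell more by 0.44, and not on day 3 (exact permutation adjusted p 0.0735) or day 7 (0.137).

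**Figure D3:**
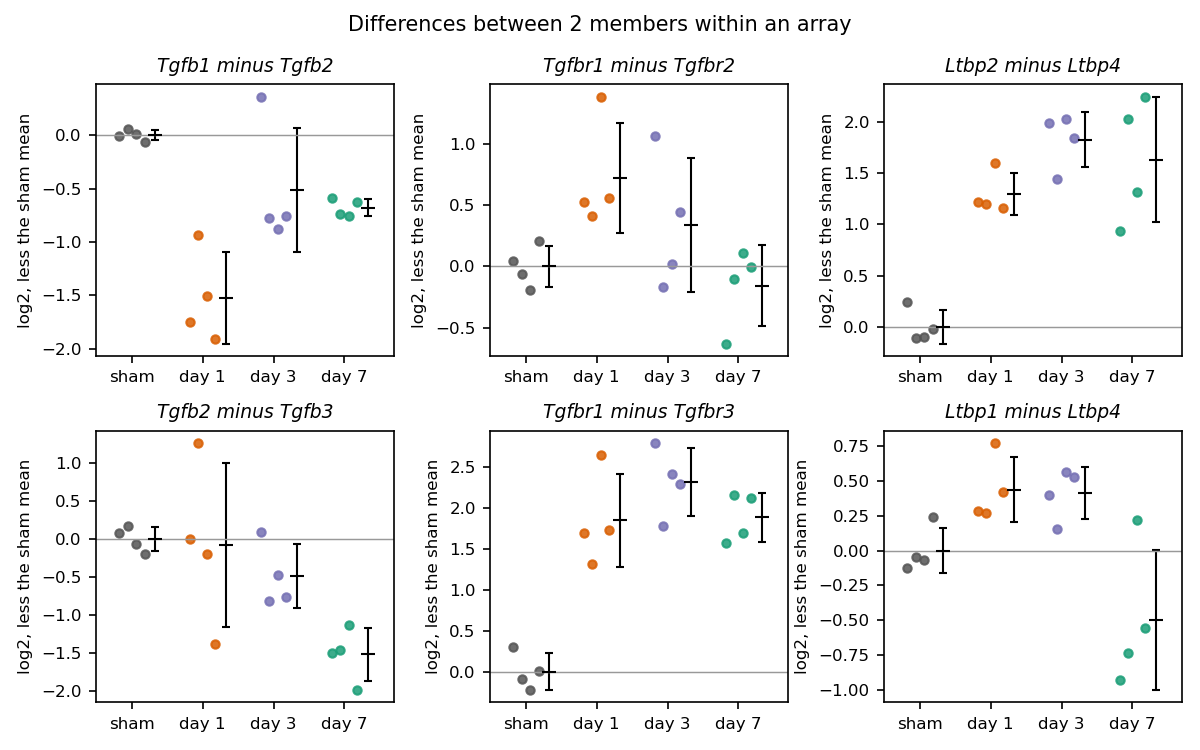
Difference in log2 signal between 2 members on the same array, less the mean of that difference in sham (y axis), for 6 of the 12 pairs, by group (x axis), with 1 point per array and the mean ± SD beside them. Tgfbr1 less Tgfbr3 lies near 0 in sham and between 1.3 and 2.8 afterwards, whereas Tgfb2 less Tgfb3 on day 1 spans both sides of 0.

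The genes whose profiles over the 16 arrays were nearest to each member, by root mean square distance after each gene's sham mean was removed, were taken from 12845 genes. Nearest to Tgfb1 was Abi1 (distance 0.11 log2 units), an actin regulator that differed from sham by 0.94, 0.97 and 0.95 on days 1, 3 and 7. Tgfb2 was nearest to Actn4 (0.37), a crosslinker of actin, and Tgfb3 to Fat1 (0.80), a protocadherin, a distance so wide that it describes no close match. Tgfbr1 was nearest to Pde1a (0.13), a phosphodiesterase, and Skil, a Smad corepressor of the feedback list below, ranked after it and Ccdc88a (0.17). Tgfbr2 was nearest to Gnai2 (0.23), a G protein subunit, with Hspg2 (0.23), the gene of perlecan, next, and Tgfbr3 to Mcur1 (0.15, 0.16 for the next gene, Kif13a), a regulator of mitochondrial calcium uptake.

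Ltbp2 lay nearest to Adamts12 (0.22), a metalloprotease, then to Bmp1 (0.27), which cuts procollagen and also LTBP1, and to Cxcl16 (0.31), a chemokine. Nearest to Ltbp3 were Mmp23 (0.094), a metalloprotease, Adamtsl2 (0.15), a matrix protein known to bind LTBP1, and Myh10 (0.15), a nonmuscle myosin. Ltbp4 was nearest to Pi16 (0.24), a gene of adventitial fibroblasts, which differed from sham by -1.17, -0.76 and 0.62, and then to Ebf2 (0.28) and Scrn1 (0.30). Ltbp1 was nearest to Akr1c14 (0.15), Glt8d2 (0.17) and Asb3 (0.19). These are descriptions of profiles over arrays that share their tissue and treatment, with no test.

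Other genes of the pathway were counted by role. The lists were chosen with earlier results of these data known, so the counts describe them and were not tested against all genes. Beside these counts stand the shares of all tested genes: 24.9% higher and 22.2% lower on day 1, 23.5% and 20.2% on day 3, and 14.9% and 9.92% on day 7. Of the 11 genes that present or activate latent TGF-beta, 7 were called higher and 2 lower on day 1, 8 and 2 on day 3, and 8 and 1 on day 7, and the list's median difference was 0.43, 0.78 and 0.86. Thbs1, the thrombospondin that frees TGF-beta from its propeptide, rose from a mean of 5.92 to 14.09 on day 1 (difference 8.17, SE 0.44, adjusted p 1.05e-07) and was still 5.56 above sham on day 7. Itgb5, a beta integrin subunit, rose by 1.77 on day 7 (SE 0.32, adjusted p 0.00108). Itgb6, of the epithelial integrin that activates latent TGF-beta, fell by 1.61 on day 1 and by 0.94 on day 7, and Pcsk6, a furin-like proprotein convertase, fell by 1.57 on day 1 and stood at -0.013 on day 7. Among the genes counted as higher on every day, Lrrc32 had a sham mean of 4.41, below the negative control medians. Nrros (4.73) and Itgb3 (4.89) lay close to those medians in sham. The negative control medians themselves were higher on day 1 than in sham, so small rises of these genes are uncertain. After quantile normalisation the count called higher was 4 on day 1 and 5 on day 3.

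Co-receptors and decoys (5 genes) were called 0 higher and 1 lower on day 1, 2 and 0 on day 3, and 3 and 0 on day 7. Cd109, a membrane co-receptor that limits signalling, was level on day 1 (0.046) and rose by 2.00 on day 3 and 3.19 on day 7 (SE 0.37, adjusted p 3.74e-05). Bambi, a pseudoreceptor, fell by 0.86 on day 1 (SE 0.21, adjusted p 0.00439). Acvrl1 (ALK1), the endothelial type I receptor, rose by 0.72 on day 7, and Acvr1 by 0.42. On day 3, quantile normalisation left 1 higher and 1 lower, and leaving out arrays 13 and 31 gave 4 higher and 1 lower.

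In the Smad signalling list (6 genes), 1 was higher and 1 lower on day 1, 2 and 1 on day 3, and 1 and 1 on day 7, counts near the shares over all genes. The list's median difference was 0.089, 0.055 and 0.089 on days 1, 3 and 7, beside 0.064, 0.082 and -0.006 over all tested genes. Fkbp1a, which binds and restrains type I receptors, rose by 0.62, 0.75 and 0.41, and Zfyve9 (SARA), which brings Smads to the receptor, fell by 0.34, 0.56 and 0.45. Smad3 rose by 0.28 on day 3 (SE 0.062, adjusted p 0.00246) and stood at 0.067 and 0.087 on days 1 and 7, not called. After quantile normalisation the higher calls were 0 on day 1, 1 on day 3 and 0 on day 7.

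Of 9 feedback inhibitors, 3 were higher on day 1, 4 higher and 1 lower on day 3, and 3 higher on day 7, and the day 1 count is near the share over all genes. The list's median difference was 0.16, 0.21 and 0.28. Skil (SnoN), a Smad corepressor and itself a TGF-beta target, rose by 0.90, 1.06 and 1.14 (adjusted p 0.000205 on day 7). Pmepa1 rose by 0.58 on day 3 and 1.17 on day 7, Tgif1 by 0.35, 0.59 and 0.66, and Ppm1a, a Smad phosphatase, fell by 0.67 on day 3. The direction of this list on day 1 turned after quantile normalisation, with 1 higher and 3 lower, and leaving out arrays 13 and 31 gave 5 higher and 1 lower on day 7.

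The matrix to which latent complexes dock was measured by 5 of 7 listed genes (Fbn1 and Efemp2 were not analysed here): 1 was higher on day 1, 4 on day 3 and 5 on day 7, with a median difference of 3.60 on day 7. Fn1 (fibronectin) rose by 4.91, 6.09 and 7.18. Eln (elastin) was level on day 1 (0.053) and rose by 0.83 and 3.69, and Fbln5, an elastic fibre protein, stood at -1.02 and 0.16 (neither called) before a rise of 3.60 on day 7. Emilin1, which restrains TGF-beta processing, rose by 0.72 on day 3 and 0.46 on day 7. Fbn2, counted as higher on days 3 and 7, had a mean of 4.19 in sham, below the negative control medians, and of 4.55 on day 3, near them. Leaving out arrays 13 and 31 added 1 lower call on day 1.

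Of 6 extracellular antagonists, 4 were lower on day 1, 1 was higher and 2 lower on day 3, and 3 were higher on day 7. Fmod is among those lower on days 1 and 3. Its means of 4.39 in sham, 3.72 on day 1 and 3.78 on day 3 lie below the negative control medians, so these falls are within the background. Htra3, a serine protease that inhibits TGF-beta signalling, fell by 2.11 on day 1 and 1.53 on day 3 and stood at 0.011 on day 7. Bgn (biglycan) rose by 1.72 on day 3 and 2.80 on day 7, Aspn (asporin) by 5.54 on day 7 (SE 0.77, adjusted p 0.000163), and Dcn (decorin) fell by 0.93 on day 1. Known transcriptional targets (14 genes tested) were called 4 higher and 1 lower on day 1, 9 and 0 on day 3, and 12 and 0 on day 7. The 4 higher on day 1 were Tgfbi (5.10), Timp1 (4.67), Ccn2 (4.00) and Lox (3.25). On day 7 they stood at 2.39, 2.51, 2.87 and 6.15. Acta2 and Snai1 were not called on any day. Snai1, with means of 4.70 in sham and 4.78 on day 1, lay close to the negative control medians, so a change in it could be hidden. Postn (periostin) stood 1.33 above sham on day 1 without a call and rose by 4.33 on day 3 and 6.87 on day 7 (SE 0.67), Col1a1 by 3.98 and 6.73, Col3a1 by 4.69 and 6.54, and Col1a2 by 3.97 and 6.19. These genes have many inputs other than TGF-beta.

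**Figure D4:**
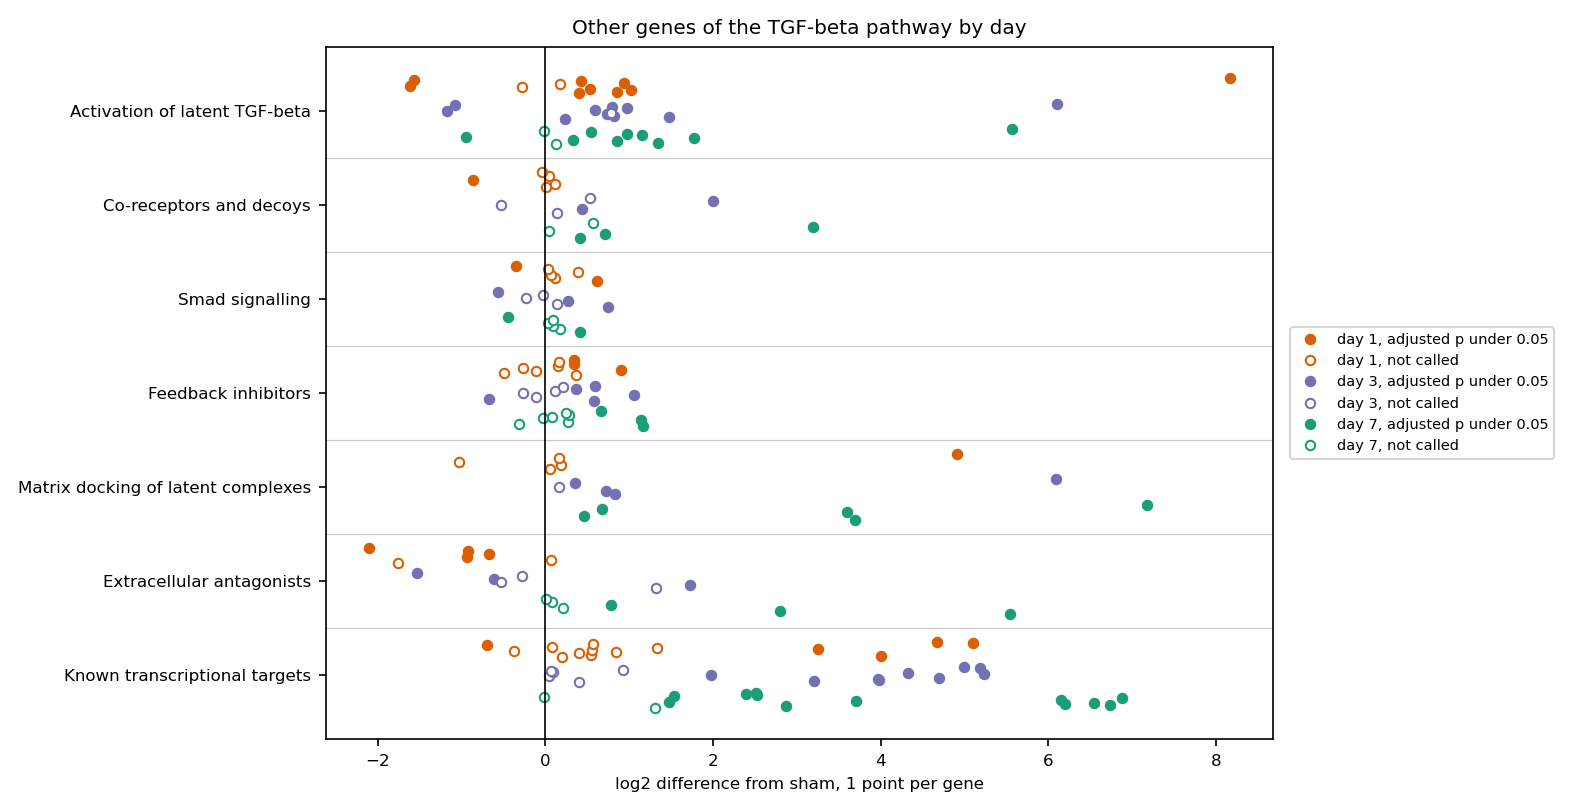
Log2 difference from sham (x axis) of the genes of 7 lists of the TGF-beta pathway outside the 10 members (y axis), with 1 point per gene and day, filled where the adjusted p was under 0.05. Thbs1 lies at 8.17 on day 1, the docking genes reach 7.18 on day 7, and the Smad signalling list stays within 0.75 of sham.

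Markers of several cell types moved with the days, and their part in the results above was not tested. Of all tested genes, 24.9% were called higher and 22.2% lower on day 1. These shares were 23.5% and 20.2% on day 3, and 14.9% and 9.92% on day 7. The counts of higher endothelial genes, and of lower smooth muscle and pericyte genes on days 1 and 3, are near them. Macrophage markers (10 of 10 tested) were called higher for 7 genes on day 1 and for 10 on days 3 and 7; their mean level lay at 8.01 to 8.25 in sham, 10.40 to 10.68 on day 1, 10.47 to 11.90 on day 3 and 10.68 to 11.99 on day 7. Neutrophil markers (7 of 10 tested) were all 7 higher on days 1 and 3 and 0 on day 7, with mean levels of 4.18 to 4.33 in sham and 4.37 to 4.46 on day 7; Ngp, Ltf and Camp were not above the negative control median on any array. Platelet markers (3 of 5 tested) were higher for 3 genes on day 1, 2 on day 3 and 0 on day 7. Their mean levels were 4.85 to 5.03 in sham, 6.40 to 7.32 on day 1, 6.23 to 6.54 on day 3 and 5.01 to 5.32 on day 7. Itga2b and Treml1 were not above the negative control median on any array. Gp9, called on day 1 (0.39), was above it on arrays 11 and 73 only, so the platelet calls clear of the background are those of Pf4 and Ppbp.

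Fibroblast markers (7 of 8 measured) were lower early and higher late: 0 higher and 5 lower on day 1, 2 and 1 on day 3, and 5 and 1 on day 7. Their mean level lay at 10.75 to 11.00 in sham, 9.40 to 10.63 on day 1, 10.56 to 12.31 on day 3 and 13.24 to 13.77 on day 7, and all 7 were above the negative control median on every array. Col1a1 and Col3a1 stand in the target list too, and Dcn in the antagonist list. Tcf21, a transcription factor of fibroblasts that is in neither, stood at -0.64, 0.23 and 1.28 from sham, and Gsn was lower on all 3 days. Smooth muscle and pericyte markers (7 of 7) were 1 higher and 2 lower on day 1, 0 and 2 on day 3, and 3 and 0 on day 7, with mean levels of 9.21 to 9.72 in sham, 8.49 to 9.81 on day 1, 7.98 to 9.71 on day 3 and 10.32 to 10.44 on day 7.

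Endothelial markers (7 of 7) were 1 higher and 3 lower on day 1, 2 and 0 on day 3, and 1 and 0 on day 7, with mean levels of 10.21 to 10.40 in sham and 10.59 to 11.11 on day 7. Epicardial and mesothelial markers (6 of 6) were 2 lower on day 1 and uncalled later. Atrial cardiomyocyte markers (7 of 8 measured) were above the negative control median on every array, as atrial tissue should show; 3 were lower on days 1 and 3 and 0 on day 7. Nppa and Tnnt2 stood at the top of the scale in sham (19.93), so a fall in them could be hidden. Myh6 stood just under it (19.81). All its day 3 arrays lay below sham, but the difference of -0.66 was not called (adjusted p 0.0871). Myl4, at 7.02 in sham and far from the top, was not called on any day (-0.37, -0.30 and -0.24 on days 1, 3 and 7). The calls are those of Myl7, Sln and Kcnj3. The mean level of the 7 was 16.50 to 16.68 in sham, 13.72 to 14.90 on day 1, 12.64 to 15.72 on day 3 and 15.35 to 16.25 on day 7. Ventricular cardiomyocyte markers (5 of 5) had mean levels of 10.20 to 10.39 in sham, with 4 lower on days 1 and 3 and 2 on day 7. The 4 lymphocyte genes measured were not above the negative control median on any array.

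**Figure D5:**
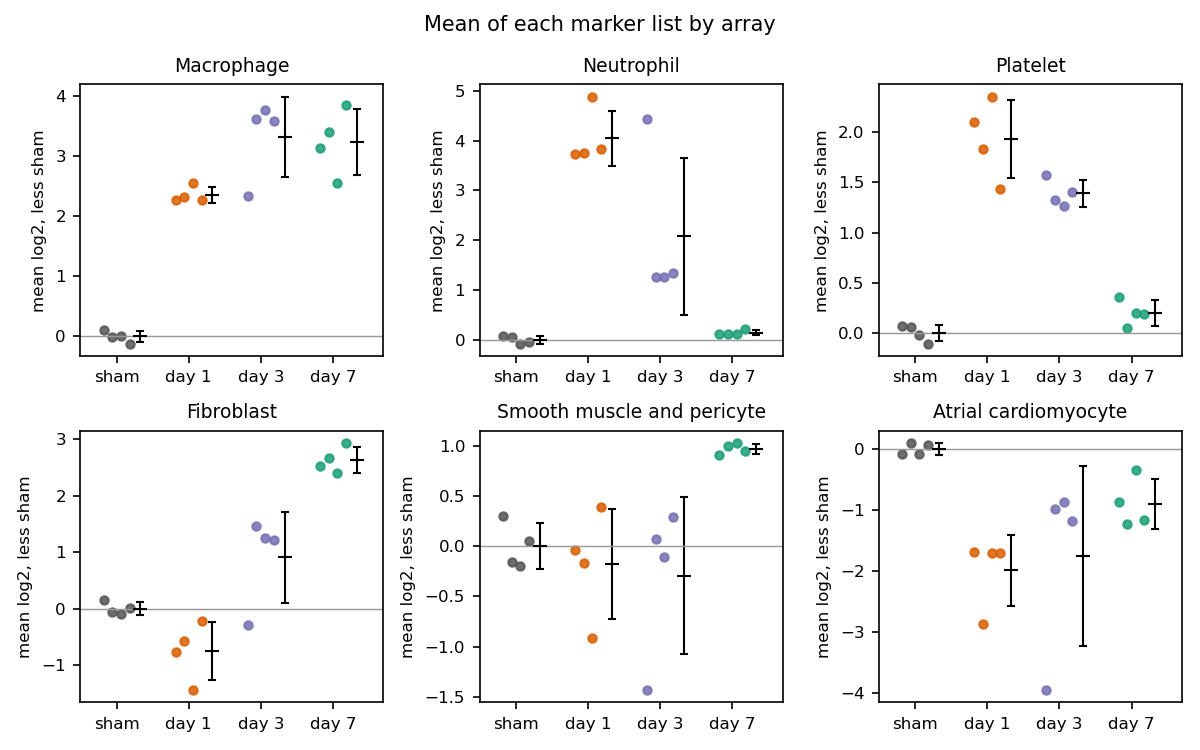
Mean log2 level of 6 cell type marker lists on each array, less the sham mean (y axis), by group (x axis), with 1 point per array and the mean ± SD beside them. Fibroblast markers lie below sham on day 1 and 2.39 to 2.93 above it on day 7, and the first day 3 point, array 31, stands apart in all panels but that of the platelet markers.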

How the data were processed

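RNA from mouse atria was measured on 16 Affymetrix arrays. The log2 values were deposited by the authors, with Affymetrix Expression Console as the tool, per the submitters' processing notes; the steps of background correction, summarisation and scaling are, in the sources used here, not given. The labels name a 3′ expression array, whereas the row identifiers are those of transcript clusters, so the array design is uncertain. The labels give no scan date or slide, so batches were not analysed here. No array level has an absolute meaning; with 4 arrays a group, precision is limited by their number.

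Of 72688 rows, 30604 carried 1 symbol in the platform annotation and 2146 several, which were not used. After 813 symbols were updated by Entrez identifier, 30294 matched RefSeq; 30141 genes remained, 356 of them with several rows, of which the row with the highest mean was kept. A gene was tested where at least 4 of 16 arrays exceeded the median of all rows, which left 18419 genes. Differences were fitted with limma 3.58.1 in R 4.3.3 (lmFit, eBayes with a variance trend, 1 mean per group over 16 arrays), with Benjamini-Hochberg adjustment over all genes tested and a call at 0.05; standard errors are those of the fit. Unequal changes within a class were tested by exact permutation. The fit was tested on simulated data. Outlying arrays were sought with Dixon's ratio. Alternatives were quantile normalisation, median centring, no filter, a filter of 12 of 16 arrays, the mean of a gene's rows, no variance trend, array weights, each array left out, and arrays 13 and 31 left out together.

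All 10 members are named. Of each pathway list at most the 4 called genes with the largest difference from sham are named. Further genes are named only where they limit or complete a count. For likeness the genes nearest to each member are named, excluding clone and predicted symbols. The members, lists and markers were chosen with earlier results of these data known.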

Additional observations from a re-analysis of the deposited data

Results flagged for a closer look

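In 40 groups of 4 arrays (10 members in 4 groups), 4 held an array whose gap to its nearest neighbour exceeded Dixon's 95% critical value for the ratio to the group's range, which chance exceeds in about 1 of 20 groups. Array 31 on day 3 was low for Tgfb2, at 7.27 against 8.32 to 8.49 on the other 3, and for Tgfb3, at 6.74 against 8.53 to 8.79. Array 14 on day 1 was high for Tgfbr1, at 9.28 against 9.07 to 9.09, and array 13 on day 1 was low for Tgfbr2, at 8.70 against 9.55 to 9.72. Arrays 13 and 31 also had the weakest separation of control rows.

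The difference from sham itself differed between days in 12 of 30 tests by limma (day against day, in which the sham arrays cancel). Of all tested genes, 26.4% were called between day 1 and day 7, 12.6% between day 3 and day 7, and 8.11% between day 1 and day 3. Between day 1 and day 7, Tgfb2 changed by -0.81, Tgfbr1 by 0.52, Tgfbr2 by 1.39, Ltbp1 by 0.89, Ltbp2 by 2.17, Ltbp3 by 1.30 and Ltbp4 by 1.83. Between day 3 and day 7, Ltbp1 changed by 0.65, Ltbp2 by 1.38, Ltbp3 by 0.90 and Ltbp4 by 1.57. Between day 1 and day 3, Ltbp3 changed by 0.40.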

How the results depend on the processing

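No called difference of a member changed sign under any alternative. Counts of members called against sham stayed within 6 to 8 on day 1, 8 to 10 on day 3 and 8 to 9 on day 7; between days 3 and 7 they were 4 to 6, and between days 1 and 7 they were 6 to 7. The count between days 1 and 3, 1 as reported, was 0 after quantile normalisation, 2 after median centring, 6 with array weights, 4 without arrays 13 and 31 together, and 1 to 5 with 1 array left out at a time. The cause was not tested. The 27 unequal changes within a class were 27 after quantile normalisation, 28 without arrays 13 and 31, and 21 to 30 with 1 array left out. Pairs at the smallest possible p pass or fail together in this adjustment, so these counts say little about any single pair. Of 60 member differences, quantile normalisation ended 4 calls, median centring ended 1 and added 3, the absence of a filter ended 1 (Tgfb2 between days 1 and 7, adjusted p 0.0521), and array weights ended 0 and added 9. A stricter filter, the mean of rows and a fit without a variance trend changed no call of the 60. No paired analysis was possible because the groups share no replicate number. Signal limits Ltbp2 and Ltbp3 most, since in sham they lay nearest to the negative control rows.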
